A study of Chlamydomonas reinhardtii with 3 samples.

Results

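The least methylated nuclear genes of the green alga Chlamydomonas reinhardtii were examined in wild type cells and in cells that lack CMD1. A gene was counted among them when its wild type methylation level lay under 0.5% and its cmd1 knockout level was less than 10 percentage points higher, on any chromosome other than chromosome 15 and outside the unplaced scaffolds. This gave 815 of the 17326 genes with a level in both genotypes, or 4.70%, and 4.83% of the 16869 such genes on the 16 chromosomes used. The genes were thus chosen by the wild type level and the difference, and both are given as a description.

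Genomic DNA was analysed by whole-genome bisulfite sequencing, in which converted, unmethylated cytosine is read as thymine and methylated cytosine as cytosine. There was 1 library of strain CC125 with the wild type genotype (WT) and 2 libraries of the same strain with the cmd1 KO genotype, all from cultures grown in TAP medium and then put under high light of 300 μE in Sueoka's high salt medium (HSM), per the labels' protocols. How the knockout was made, and whether its libraries came from 1 clone, is not stated in the labels. The deposited table holds 1 wild type value and 1 cmd1 KO value per gene, so nothing below has a spread between replicates and every difference describes these libraries.

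In this alga most nuclear genes carry little 5-methylcytosine. TET enzymes of animals oxidise 5-methylcytosine and use 2-oxoglutarate for it, whereas CMD1, their algal homolog, uses vitamin C and adds a glyceryl group derived from it. A gene at the bottom of the wild type range is one whose listed sites were read as almost wholly unmethylated.

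The genes had a median wild type level of 0.392% (quartiles 0.309% and 0.456%). They were crowded towards the ceiling of the rule, with 384 genes at 0.4% or more, 311 between 0.25% and 0.4%, and 120 under 0.25%. In 30 of them the level was listed as 0. Just inside the ceiling stood Cre01.g018600 at 0.499% over 74 listed sites and Cre09.g392208 at 0.498% over 119 sites. Just outside it, Cre12.g498200 and Cre09.g398300 both stood at 0.5%, over 108 and 92 sites. Their cmd1 KO levels were 5.12% and 7.48% inside the limit and 4.70% and 4.62% outside it.

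In cmd1 KO the same genes had a median level of 5.07% (quartiles 4.25% and 6.0%), beside 5.89% over all 17326 genes. All 815 were higher in cmd1 KO, as any gene under 0.5% in wild type had to be, since the lowest cmd1 KO level of all genes was 2.05%. The median difference was 4.70 points, beside 4.73 points over all genes. A difference of at least 5 points was reached by 338 of the 815 genes, or 41.5%, beside 41.7% of all genes. Because the rule used this contrast, nothing is read from that count. Among the 785 genes with a wild type level above 0, the median ratio of the levels was 13.3, beside 5.52 over all genes, and the wild type level that chose the genes is its denominator.

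**Figure D1:**
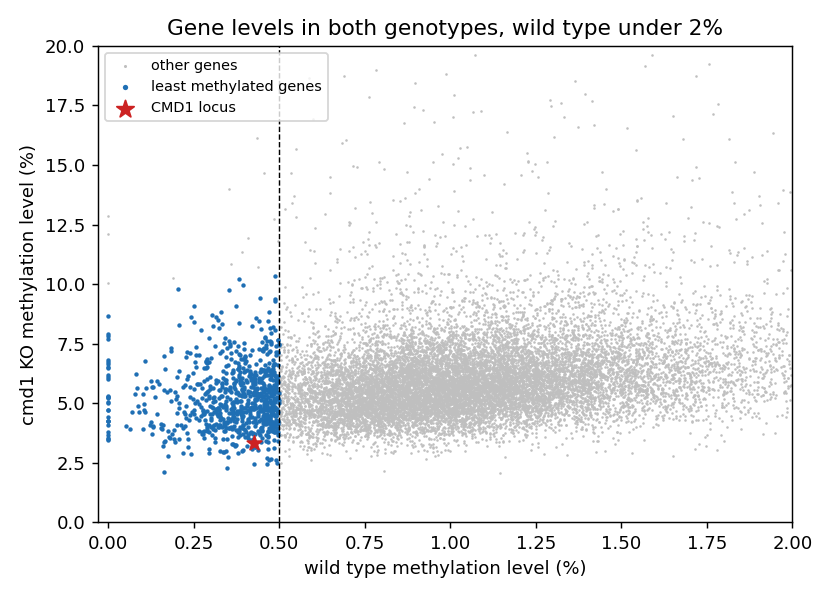
Each point is 1 gene, with its wild type level in percent on the x axis and its cmd1 KO level in percent on the y axis, for genes under 2% in wild type and under 20% in cmd1 KO on the chromosomes used. The 815 least methylated genes (blue) lie left of the dashed line at 0.5%, with most cmd1 KO levels between 4% and 6%, and the CMD1 locus (star) stands near their lower edge.

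Across the 815 genes the wild type and cmd1 KO levels gave r = 0.04 (Pearson) and rho = 0.07 (Spearman). The rule holds both values to a narrow range, so these are not comparable with the 0.91 and 0.43 over all genes. The points share their libraries, and genes are not independent replicates. The cmd1 KO level lay between 4% and 6% in 466 genes, or 57.2%, under 3% in 20 genes and at 8% or more in 32. Over all 17326 genes the cmd1 KO quartiles were 5.03% and 7.03%.

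The place of the group in the cmd1 KO column is given as a description, since the limits on the wild type level and on the difference together hold the cmd1 KO level under 10.5%. Of the 815 genes, 588, or 72.1%, lay below the cmd1 KO median of all genes, and the middle gene stood at the 26.1st percentile of the cmd1 KO column. The 815 genes with the lowest cmd1 KO levels, all at or under 3.99%, shared 144 genes with the least methylated wild type genes. This is 17.7% of each list, and the group makes up 4.70% of all genes. The median cmd1 KO level was 5.20% in the 2299 genes from 0.5% to under 0.75% in wild type, 5.54% in the 4314 genes from 0.75% to under 1% and 6.02% in the 7684 genes from 1% to under 2%, all with the same limit on the difference. The differences themselves had medians of 4.55, 4.66 and 4.73 points in these classes.

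The levels of the genotypes were averaged over lists of unequal length, and this bears on every cmd1 KO value given here. The wild type lists held 45772 sites over the 815 genes, with a median of 53 per gene, and the cmd1 KO lists held 12440, with a median of 14. Per the file headers these are numbers of sites and not of reads, so the read depth behind a level is unknown. The cmd1 KO number, however, may count each distinct level only once. If every listed level of a gene were a different multiple of 0.001, the least possible mean would be 0.65% for the median cmd1 KO list. No cmd1 KO mean among the 815 lay below its own least value, whereas 811 wild type means did, so the wild type lists of those 811 genes held repeated levels. Over all 17326 genes no cmd1 KO mean lay below its least value either, and 15822 wild type means, or 91.3%, did. The rule chose low wild type means, so the 811 are not read as a trait of the group. The cmd1 KO means leave lists without repeats possible but do not show them, except in the 30 genes at 0, whose p-values, described further on, are those of such lists. A mean over distinct levels is not comparable with a mean over all sites, and how the cmd1 KO mean was taken is not stated in the labels or the table. The cmd1 KO levels, site numbers, site ratios and differences given here all carry this limit. The cmd1 KO levels were also summed and divided by the larger of both site numbers, which counts absent sites as 0. The median cmd1 KO level was then 1.35% and the median difference 0.98 points. This lower reading is not a sure floor. The number of sites behind a cmd1 KO list is unknown and may exceed both listed numbers.

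On that lower reading 811 of the 815 genes, or 99.5%, stood above wild type, beside 15962 of all 17326 genes, or 92.1%. In the 2299 genes from 0.5% to under 0.75% in wild type the share was 98.3%. The 815 were chosen for a low wild type level, so nothing is read from their count. The exceptions among the 815 were Cre03.g167200, Cre10.g456950, Cre12.g487400 and Cre17.g713850, chosen after their values were seen. Each of these had only 5 to 8 listed cmd1 KO sites against 38 to 84 in wild type. Cre12.g487400 stood at 0.425% in wild type, at 2.45% in cmd1 KO as deposited, and at 0.368% on the lower reading.

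Genes with few listed sites made up much of the group. The median of 53 wild type sites compares with 82 over all genes, and the median of 14 cmd1 KO sites with 26. Genes with at least 100 wild type sites were 64 of the 815, or 7.85%, against 32.8% of all genes on the same chromosomes. Of the 275 genes with 5 to 19 wild type sites, 50 were among the least methylated, or 18.2% (exact Clopper-Pearson 95% interval 13.8% to 23.3%). The share was 14.1% of genes with 20 to 39 sites, 8.89% with 40 to 59, 4.76% with 60 to 79 and 2.83% with 80 to 99. It was 1.16% of the 5540 genes with 100 or more (interval 0.891% to 1.47%). The shares fell from class to class, and the intervals, which take genes as independent and cover counting error only, did not overlap between the lowest and the highest class. How far the short lists account for the low levels was not tested.

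**Figure D2:**
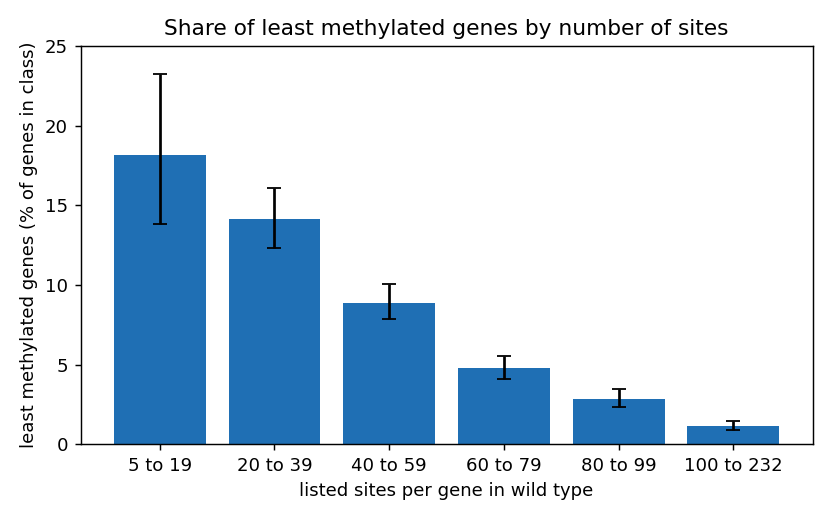
Bars give the percentage of genes in each class of wild type site number (x axis) that belong to the least methylated genes (y axis), with exact 95% intervals as error bars. The share falls from 18.2% at 5 to 19 sites to 1.16% at 100 or more.

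The 30 genes at 0 were the extreme of this. Their lists were short, with a median of 14 wild type sites and a range of 5 to 36, and 22 of the 30 had under 20. Cre17.g701050 had the longest list, 36 wild type sites all at 0, and stood at 4.08% over 9 sites in cmd1 KO. Cre11.g476200 had 33 wild type sites at 0 and 5.31% over 7 sites in cmd1 KO. Cre12.g556653 had 30 wild type sites at 0 and 5.02% over 6 sites. Over the 30 genes the cmd1 KO level ranged from 3.46% to 8.64%, with a median of 5.23%, so a wild type level of 0 went with cmd1 KO levels in the same range as the rest of the group. No ratio is given for these genes, whose wild type level is listed at 0.

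At the other end, the genes with the longest lists kept a level under 0.5% over many sites. Cre10.g439850 had 150 wild type sites at a mean of 0.429%, and 33 cmd1 KO sites at 3.69%. Cre02.g101050 stood at 0.494% over 147 sites and at 6.01% over 36 sites. Cre01.g049132 stood at 0.487% over 143 sites and at 4.86% over 33 sites. Their wild type levels lay close to the ceiling. The median wild type level of the group rose from 0.165% in genes with 5 to 19 sites to 0.447% in genes with 100 or more.

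The median cmd1 KO level of the group was also compared within classes of wild type list length. The cmd1 KO lists were not matched. In genes with 20 to 39 wild type sites the median cmd1 KO level was 4.96% in the least methylated genes and 5.87% in genes between 0.5% and 2% in wild type with the same limit on the difference. In genes with 60 to 79 sites it was 4.93% and 5.85%, and in genes with 100 or more it was 5.14% and 5.64%. The median was lower in the least methylated genes in all 6 classes, and the quartile ranges overlapped in each. The cmd1 KO level is the wild type level plus the difference, and the genes were chosen for a lower wild type level. How far that choice accounts for their lower cmd1 KO medians was not tested. The median difference between genotypes went both ways, at 5.23 points against 4.31 points in genes with 5 to 19 sites and 4.72 points against 4.61 points in genes with 100 or more, but 4.55 points against 4.79 points with 60 to 79 sites.

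**Figure D3:**
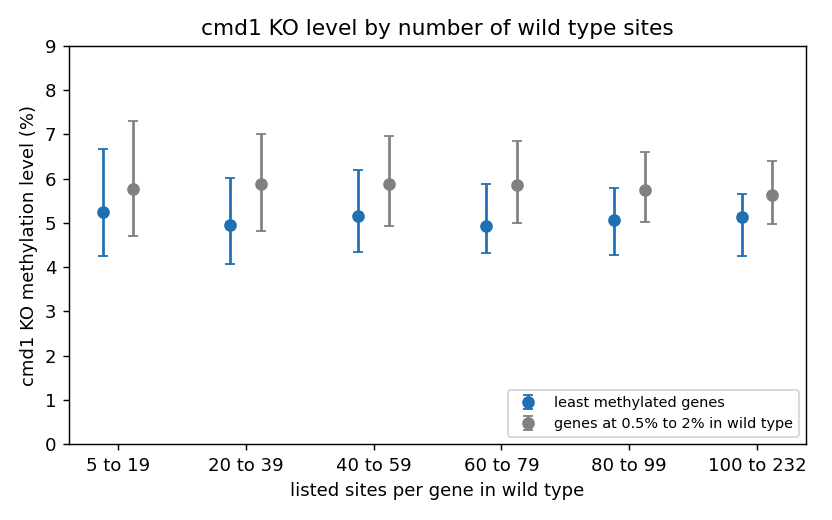
Points give the median cmd1 KO level in percent (y axis) and bars the quartiles, in classes of wild type site number (x axis), for the least methylated genes (blue) and for genes from 0.5% to 2% in wild type (grey), both with a difference under 10 points. The blue median lies below the grey one in all 6 classes, for example at 4.93% and 5.85% with 60 to 79 sites, and the quartile ranges overlap.

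The ratio of listed cmd1 KO to wild type sites had a median of 0.270 in the group, beside 0.271 in genes from 0.5% to under 0.75% in wild type, 0.286 in genes from 0.75% to under 1% and 0.310 over all genes. The ratio of the group was thus close to that of the next class. Only 8 of the 815 genes, or 0.982%, had more cmd1 KO than wild type sites, against 3.06% of all genes on the same chromosomes. The largest ratio was that of Cre14.g631148, with 18 wild type and 49 cmd1 KO sites, which stood at 0.306% and 4.80%. Cre07.g322176 followed with 6 and 11 sites, and levels of 0 and 3.54%. Both have longer cmd1 KO than wild type lists, so in them the division by the larger number changes nothing.

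The range of cmd1 KO levels within the group ran from 2.12% to 10.4%. Cre12.g541600 had the highest cmd1 KO level, 10.4% over 28 sites, against 0.488% over 69 sites in wild type. Its difference of 9.87 points was the largest that the rule admitted. Next came Cre03.g165750, with a wild type level of 0.381% and 11 cmd1 KO sites at 10.2%, and Cre10.g449501, with 0.394% and 24 cmd1 KO sites at 9.96%. Cre03.g179000 stood at 0.206% over 35 sites and at 9.81% over only 8 sites.

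At the lower edge, Cre12.g526471 had a wild type level of 0.164% from 14 sites and a cmd1 KO level of 2.12% from 5 sites. Cre10.g432750 stood at 0.347% over 60 sites and 2.27% over 19 sites. Cre10.g452350 stood at 0.464% over 39 sites and 2.43% over 16 sites. The cmd1 KO lists held 8 to 28 sites in the 4 genes with the highest levels and 5 to 19 in the 4 with the lowest. Across the 815 genes the cmd1 KO level and the cmd1 KO site number had a Spearman's rho of 0.09.

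The limit of 10 points removed 14 genes that lay under 0.5% in wild type. Their differences ran from 10.1 points in Cre14.g632831 to 17.2 points in Cre13.g579598. The latter had a wild type level of 0.326% from 27 sites and a cmd1 KO level of 17.5% from 15 sites. Cre06.g278243 stood at 0.434% over 58 sites and 16.1% over 28 sites. On the lower reading of the cmd1 KO level these would stand at 9.72% and 7.79%. Over all 17326 genes, 3.5% were higher by at least 10 points.

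The CMD1 gene itself was one of the 815. Its locus, Cre12.g553400 on chromosome 12, is named here from the published nomenclature, since neither the deposited table nor the reference table gives it a symbol. Its 99 wild type sites had a mean of 0.426%, a level below which 502 of the 815 genes lay. Its 24 cmd1 KO sites had a mean of 3.32%, and only 37 of the 815, or 4.54%, had a lower level there. Among the 98 genes of the group with 80 to 99 wild type sites, whose cmd1 KO levels ranged from 2.98% to 9.96% with a median of 5.06%, 5 lay below it. These values say nothing of how the locus was altered in the knockout.

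One neighbour of CMD1 also belonged to the group. Cre12.g553350 had a wild type level of 0.309% from 65 sites and a cmd1 KO level of 4.08% from 9 sites. The neighbour on the other side, Cre12.g553450, had levels of 1.81% (52 sites) and 7.0% (15 sites), and so lay above the wild type median of 1.05% and the cmd1 KO median of 5.89% of all genes.

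Some of the least methylated genes lay next to each other. With the genes that have both levels ordered as in the reference, 118 of the 815, or 14.5% (exact 95% interval 12.1% to 17.1%), had another of the 815 beside them. Among the 16052 other genes placed on the same chromosomes, 1473, or 9.18% (interval 8.73% to 9.63%), had one of the 815 beside them. The intervals did not overlap, but they take genes as independent. Both genes of an adjacent pair count among the 118, so the interval of the group is too narrow. The shares were not matched on list length. The median wild type site number was 53 in the group and 84 in the genes outside it. Adjacent genes can share sites where their regions overlap, and which region was assigned to a gene is not stated in the labels or the table. Of the 61 adjacent pairs within the group, 1, or 1.64%, had identical values in all 4 columns. Over all genes 16 of 17065 adjacent pairs did, or 0.0938%, and with 1 pair nothing is read from this. The pair in the group was Cre03.g156450 and Cre03.g156476, chosen after its values were seen. Each had 21 wild type sites at 0.495% and 6 cmd1 KO sites at 7.63%. Counting that pair once left 14.4% with an adjacent member. Partial sharing of sites was not tested.

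Most members stood alone all the same. There were 697 single genes, 53 runs of 2 and 4 runs of 3. On chromosome 14 the run of Cre14.g620800, Cre14.g620850 and Cre14.g620900 stood at 0, 0.497% and 0.177% in wild type, over 9, 90 and 44 sites. In cmd1 KO these genes stood at 6.18%, 3.78% and 3.57%. On chromosome 1 the run of Cre01.g029750, Cre01.g029850 and Cre01.g029900 stood at 0.402%, 0.470% and 0.490% in wild type and at 4.18%, 4.79% and 2.60% in cmd1 KO. Beside the run on chromosome 6, which ends with Cre06.g293700 at 0.484% and 4.77%, lay Cre06.g293750, which had a wild type level of 1.62% from 70 sites and a cmd1 KO level of 21.2% from 41 sites. It is named for that value, which was the highest among the 8 genes that flank the runs of 3. The other 7 had wild type levels of 0.603% to 1.41% and cmd1 KO levels of 4.20% to 7.42%. 

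The adjacent genes that were not members are genes that the rule did not admit, as are the remaining genes compared with them. In both sets the wild type level was thus 0.5% or more unless the difference reached 10 points, and the levels are a description. The median wild type level of the adjacent genes was 1.03% (quartiles 0.833% and 1.30%, n = 1473). It was 1.08% in the 14581 remaining genes of the same chromosomes (quartiles 0.857% and 1.39%). Their cmd1 KO medians were 5.82% and 5.92%. A wild type level of 10% or more was found in 8 of the 1473 adjacent genes, or 0.543% (interval 0.235% to 1.07%), and in 516 of the 14581 others, or 3.54% (interval 3.24% to 3.85%). Genes adjacent to each other are not independent, so these intervals are too narrow by an unknown amount.

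Along the genome the group was spread over all 16 chromosomes used. It made up from 3.75% of the genes of chromosome 5 (17 of 453, interval 2.20% to 5.94%) to 5.99% of those of chromosome 8 (42 of 701, interval 4.35% to 8.01%). The intervals of 15 chromosomes held the overall share of 4.83%. Chromosome 6 was the exception, with 59 of 1569 genes, or 3.76%, and an upper bound of 4.82%. With 16 chromosomes compared and no correction made, this is given as a value only. The median cmd1 KO level of the members ranged from 4.36% on chromosome 5 to 5.41% on chromosome 9. On chromosome 15 and on the scaffolds, which the rule leaves out, 5 of 215 and 5 of 242 genes met both limits on the levels.

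**Figure D4:**
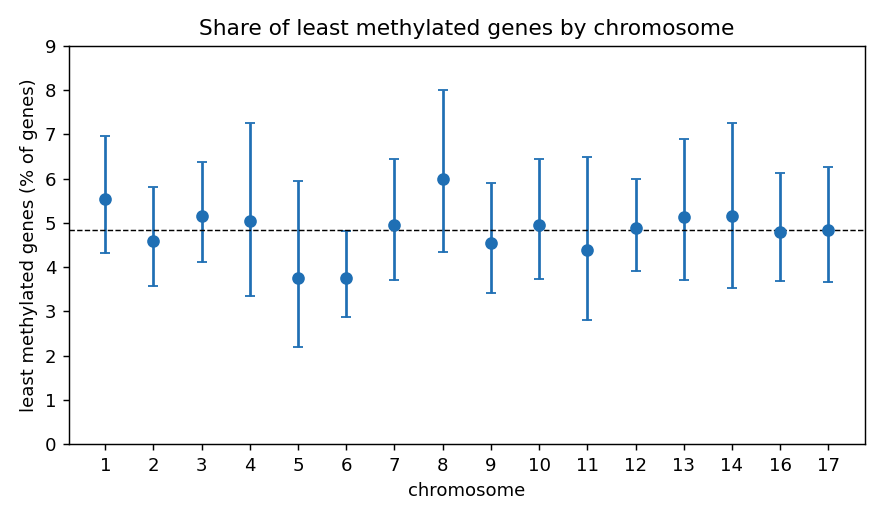
Points give the percentage of genes on each chromosome (x axis) that belong to the least methylated genes (y axis), with exact 95% intervals. The dashed line marks the share over the 16 chromosomes, 4.83%, and chromosome 6 at 3.76% is the one whose interval lies below it.

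The reference records an identifier from an earlier annotation for some gene models. It did so for 636 of the 815 genes, or 78.0% (interval 75% to 80.8%), and for 71.3% of the 16052 other matched genes on the same chromosomes (interval 70.6% to 72.0%). In genes with under 20 wild type sites the shares were 74.0% of 50 and 66.2% of 225, with overlapping intervals. The reference gave no symbol or description to any of the 815, so the group could not be divided by function.

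The deposited p-values of the group followed the length of the lists. In the authors' deposited table all 815 genes passed an adjusted p of 0.05 after Benjamini-Hochberg adjustment over the 17326 genes, where 97.6% of all genes passed as higher in cmd1 KO. The rule used this contrast and nothing is read from the count. Across the 815 genes, −log10 of p had a Spearman's rho of 0.92 with the wild type site number and 0.88 with the cmd1 KO site number. With the difference itself the rho was 0.04. Over all 17326 genes the corresponding values were 0.78, 0.58 and 0.12.

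The genes at 0 show this directly. In each of the 30, p in the authors' deposited table equalled a rank-sum p computed from the site numbers alone, with every wild type site at 0, 1 cmd1 KO site at 0 and no other equal levels, within a relative gap of 5.15e-13. Cre03.g203793 and Cre13.g567327 both had 9 wild type and 9 cmd1 KO sites. Their cmd1 KO levels were 7.69% and 4.24%, and both carried p = 0.000579 in the authors' deposited table. In these 30 genes p was a function of the site numbers and did not depend on the size of the cmd1 KO level.

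**Figure D5:**
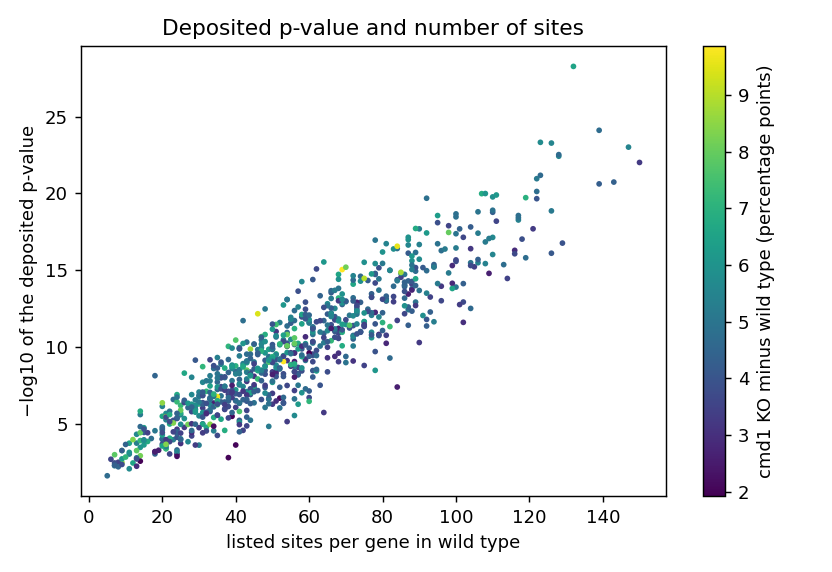
Each point is 1 of the 815 genes, with its wild type site number on the x axis, −log10 of the authors' deposited p-value on the y axis, and the difference in percentage points as colour. The points rise with the site number (Spearman's rho 0.92), and colours mix at every height (rho 0.04 with the difference).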

How the data were processed

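Bisulfite reads were processed with FastQC 0.11.5, Trimmomatic 0.36 and BSMAP, per the submitters' processing notes. The genome build, annotation, coverage minimum, cytosine contexts and conversion rates are not stated in the labels or the table. The deposited table of 17527 entries gives, per the file headers, a count of sites per gene and genotype (not reads) and a methylation level as a fraction, printed here as percent. The deposited fraction times the count was a whole multiple of 0.001, within 1e-06, in all genes with a level. The cmd1 KO count may hold each distinct level only once, as the values of the genes at 0 in wild type show for them, and how the cmd1 KO mean was taken is not given. The 2 cmd1 KO libraries share 1 column, and how they were joined is not given. The deposited p-value of the authors has no named test. The deposited difference and relative change (scores) and the deposited fold were not used, except that the difference equalled the computed one in all 17326 genes. The 201 entries without levels all had under 5 sites in a column, and 185 of them lay on the chromosomes used.

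Values were computed with Python 3.11.15, pandas 2.3.3 and scipy 1.17.1, and the selection, adjustment and neighbour steps were tested on simulated data. With 1 value per genotype no test between genotypes was possible. All 815 genes matched the reference table (assembly Chlamydomonas_reinhardtii_v5.5), which was used only for gene order and earlier identifiers. The genes and comparisons were chosen with earlier results of these data known. Named genes are the extremes of level, difference, site number and site ratio, those at the limits of the rule, the longest runs and CMD1, with exceptions stated. Not every gene that the rule admits is printed.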

Additional observations from a re-analysis of the deposited data

How the results depend on the processing

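Of 40 alternative values, 23 stayed within a set range of the main value (exact 95% order-statistic or binomial interval, or 1.5 times for counts). The intervals take genes as independent and hold no error between replicates, so this tally is a description only. Under each changed ceiling, site minimum and set of chromosomes, the count past the deposited test equalled the number of genes. It did so too with identical adjacent entries counted once, so these counts are not separate checks. With at least 20 listed sites in both columns, 202 genes were left, all 202 past the deposited test, with a wild type median of 0.441%, a site ratio of 0.287 and 7.92% with an adjacent member (3.28% of other genes). A wild type ceiling of 0.4% gave 431 genes (431 past the test), a median of 0.316% and 7.89% with an adjacent member (4.96% of others). A ceiling of 0.6% gave 1461 genes (1461 past the test), 0.483% and 19.9% (16.3% of others). A changed ceiling or site minimum moves the number of genes by construction, and a changed ceiling also their wild type median. What lies behind the other shifts was not tested. Of all 17326 genes 97.6% passed as higher in cmd1 KO, so nothing is read from the counts past the test. For the minimum of 20 sites the adjustment was repeated within the genes left, and their share passing is not given. With the cmd1 KO levels summed over the larger site number, the cmd1 KO median was 1.35% and the difference 0.98 points, lower by construction. With the cmd1 KO levels as deposited, means over genes in place of medians were 5.24% for the level and 4.87 points for the difference. The median difference stayed between 4.66 and 4.74 points under the other ceilings, site minimum and chromosomes, and when identical adjacent entries were counted once, which was chosen after seeing the data, as were the ceilings and chromosomes for the deposited test. The planned promoter CpG counts, function lists and orientation of neighbours were not run, for want of promoter sequences, descriptions and strand. No paired analysis was possible because the cmd1 KO libraries share 1 column. No replicate could be left out for the same reason. Read depth is unknown and limits every level.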
